A study of Mus musculus with 12 samples.

Results

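Nuclear factor kappa B (NF-κB) subunits, their nuclear partners and the feedback inhibitors of the pathway were followed in mouse colon through 10 genes chosen by name: Nfkb1, Nfkb2, Rel, Relb, Nfkbia, Bcl3, Nfkbiz, Tnfaip3, Tnip1 and Tnip3. All 10 of 10 were found among the 35841 genes of the deposited table, and all 10 were among the 22279 genes with enough counts to be tested. Whole colon tissue of wild-type mice was sequenced as poly(A) RNA in 12 libraries, 3 in each of 4 groups. The DSS+ImP group received ImP together with dextran sulfate sodium (DSS), a sulfated polysaccharide that damages the gut lining and serves to induce experimental colitis. The DSS group received DSS without ImP, the ImP group received ImP without DSS, and the treatment field of the Ctrl group reads null. The labels do not spell out ImP, and the title of the series names Angelica dahurica polysaccharides, which no library label mentions. The series text describes colitis with or without ImP over 7 days, and neither doses nor strain, age or sex of the mice are given. The labels number the libraries (DSS+ImP 2, 3 and 4, DSS 2, 3 and 5, ImP 1, 3 and 4, Ctrl 1, 4 and 5) but do not say that each is a separate animal, so p-values here cover only sample-to-sample spread, which may be technical.

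NF-κB is a family of dimeric transcription factors that is held in the cytoplasm by inhibitor of κB (IκB) proteins and released when receptors for bacterial products, tumour necrosis factor or interleukin-1 activate the IκB kinases. Among the genes it then switches on are its own inhibitors: IκBα (Nfkbia), which recaptures the factor, and A20 (Tnfaip3), which edits ubiquitin chains on the signalling proteins upstream. In the colon the pathway is known both for sustaining the epithelial barrier and for driving inflammatory gene expression, and mice that lack A20 in gut epithelium are sensitive to DSS.

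NF-κB dimers bind DNA at κB sites, and the promoters of these genes were searched for letters that match such a site. RefSeq promoter windows on GRCm38.p6, reaching from 250 bases before the annotated start to 50 bases after it, were on hand for 7 of the 10 genes (10 windows). Relb, Nfkbiz and Nfkb1 had none. The κB consensus, a motif of 10 bases searched on both strands, was present in at least 1 window of each of the 7 genes. Over all RefSeq windows of this length it was present in 4.51% of 32851 windows and in 5.14% of 27025 genes. A match is a description of letters, not evidence of binding. Shown are 5 promoters, the 3 genes that rose most in DSS+ImP against Ctrl (Tnip3, Bcl3, Tnfaip3), the classical feedback inhibitor Nfkbia, and Tnip1, which edgeR called in no comparison. Each runs 5′ to 3′ on the gene's strand, from 150 bases before the annotated start through the first 20 bases from it, with the κB matches in capitals.
Tnip3: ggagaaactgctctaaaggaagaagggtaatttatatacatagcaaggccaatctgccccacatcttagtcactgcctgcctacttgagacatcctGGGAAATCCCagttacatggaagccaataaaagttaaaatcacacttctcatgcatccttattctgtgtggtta
Bcl3: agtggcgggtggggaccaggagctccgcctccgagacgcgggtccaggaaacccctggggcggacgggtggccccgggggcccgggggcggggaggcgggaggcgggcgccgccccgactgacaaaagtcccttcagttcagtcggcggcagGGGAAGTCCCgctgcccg
Tnfaip3: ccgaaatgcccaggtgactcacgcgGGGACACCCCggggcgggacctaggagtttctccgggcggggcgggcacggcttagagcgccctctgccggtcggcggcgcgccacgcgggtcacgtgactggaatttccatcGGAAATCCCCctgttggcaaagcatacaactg
Nfkbia: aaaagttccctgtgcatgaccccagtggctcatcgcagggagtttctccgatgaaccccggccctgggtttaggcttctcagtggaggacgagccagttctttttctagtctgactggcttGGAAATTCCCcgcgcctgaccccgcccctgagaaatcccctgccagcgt
Tnip1: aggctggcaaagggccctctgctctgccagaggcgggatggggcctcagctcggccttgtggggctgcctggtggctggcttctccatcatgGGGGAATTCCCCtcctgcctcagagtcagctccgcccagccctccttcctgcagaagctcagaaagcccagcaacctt
The Tnip3 stretch lies at chr6:65590248-65590417 on the plus strand, and its match, found on both strands, begins 54 bases before the start. The other 4 lie on the minus strand. The Bcl3 stretch is at chr7:19822736-19822905, with a match that begins 2 bases after the start. The Tnfaip3 stretch is at chr10:19015391-19015560, with matches that begin 125 and 12 bases before the start. Its other RefSeq window, further into the gene, holds none. The Nfkbia stretch is at chr12:55492628-55492797, with a match 29 bases before the start. The Tnip1 stretch is at chr11:54962921-54963090 and holds 4 overlapping matches within 12 bases. The end of the Tnip1 window was not found in the GENCODE transcripts of that gene, unlike those of the other 4 stretches shown. The Rel window on chromosome 11 holds GGGAAATCCCC, and the 3 Nfkb2 windows on chromosome 19 hold GGGAATTCCCC, GGGGCTTTCC, GGAATGTCCC and GGGACTTTCC, the last of which lies in 2 overlapping windows.

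Levels are given as CPM, the share of a library's counts that fall on a gene after normalisation of library size, and differences as log2 changes ± standard error (SE) with the group named first on top. The words rose and fell are kept for genes with an adjusted p under 0.05 over all 22279 genes in a quasi-likelihood fit of edgeR on all 12 libraries. Total estimated counts ran from 55419380 to 67406087 per library. The tissue label was borne out by colon epithelial markers, none of the 12 being at 0 in any group. Their summed level was 16406 to 23062 CPM in DSS+ImP, 26616 to 28650 CPM in DSS, 25222 to 33589 CPM in ImP and 34183 to 38156 CPM in Ctrl. Liver transcripts also differed among the libraries. Albumin (Alb) stood at 37 CPM in DSS 2 and at 43.5 to 46.2 CPM in the 3 Ctrl libraries, against at most 1.1 CPM in the other 8 libraries. Libraries with albumin at or above 10 CPM are said here to carry the liver trace. The 14 liver markers, however, were not at 0 in the others: they summed to 7.15 to 55.5 CPM in DSS+ImP, 26.0 to 139 CPM in DSS and 11.6 to 54.5 CPM in ImP, against 165 to 206 CPM in Ctrl. Of 13 pancreatic markers, 8 were at 0 in all DSS+ImP libraries, 0 in DSS, 0 in ImP and 1 in Ctrl. Their sums differed less, at 41.3 to 52.6 CPM in DSS+ImP and 40.8 to 67.7 CPM in DSS. They were 76.6 to 90.4 CPM in ImP and 49.6 to 53.9 CPM in Ctrl. In whole tissue, fewer cells of a type and less RNA per cell cannot be told apart.

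Set against Ctrl, colon that had received both agents held higher levels of most of these genes. In DSS+ImP, 6 of the 10 rose (Nfkb2, Rel, Nfkbia, Bcl3, Tnfaip3 and Tnip3) and 1 fell (Relb), beside 10.9% of all tested genes called up and 11.8% called down. In DSS without ImP, 2 of the 10 rose, Bcl3 and Tnip3, beside 1.21% of all tested genes. In ImP without DSS, 3 rose, Bcl3, Tnfaip3 and Tnip3, beside 1.06% of all tested genes, and in neither of these comparisons did a member fall. The median log2 change of the 10 was 0.60 in DSS+ImP, 0.09 in DSS and 0.37 in ImP, against medians of 0.004, -0.022 and -0.0084 over all tested genes. These comparisons share the 3 Ctrl libraries. All Ctrl libraries and none of DSS+ImP or ImP had albumin at or above 10 CPM, so for those groups the liver trace and the treatment cannot be told apart except through the DSS group, where 1 library carried it. A fit with the liver trace as a term therefore rests on that library, DSS 2.

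Between the treated groups fewer calls were made. With ImP added to DSS, 0 of the 10 rose and 0 fell in edgeR's quasi-likelihood test, beside 3.99% of all tested genes called up and 4.04% called down. At an unadjusted p under 0.05, 5 of the 10 were higher in DSS+ImP than in DSS (Nfkb2, Rel, Nfkbia, Bcl3 and Tnfaip3), beside 12.2% of all tested genes. DESeq2 called 2 of them, Rel and Tnfaip3, beside 8.09% of the genes it tested. The median log2 change of the 10 was 0.36, against 0.017 over all tested genes. With DSS added to ImP, 1 of the 10 rose, Nfkb2, beside 4.41% of all tested genes, and the median was 0.18 against 0.0041.

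**Figure D1:**
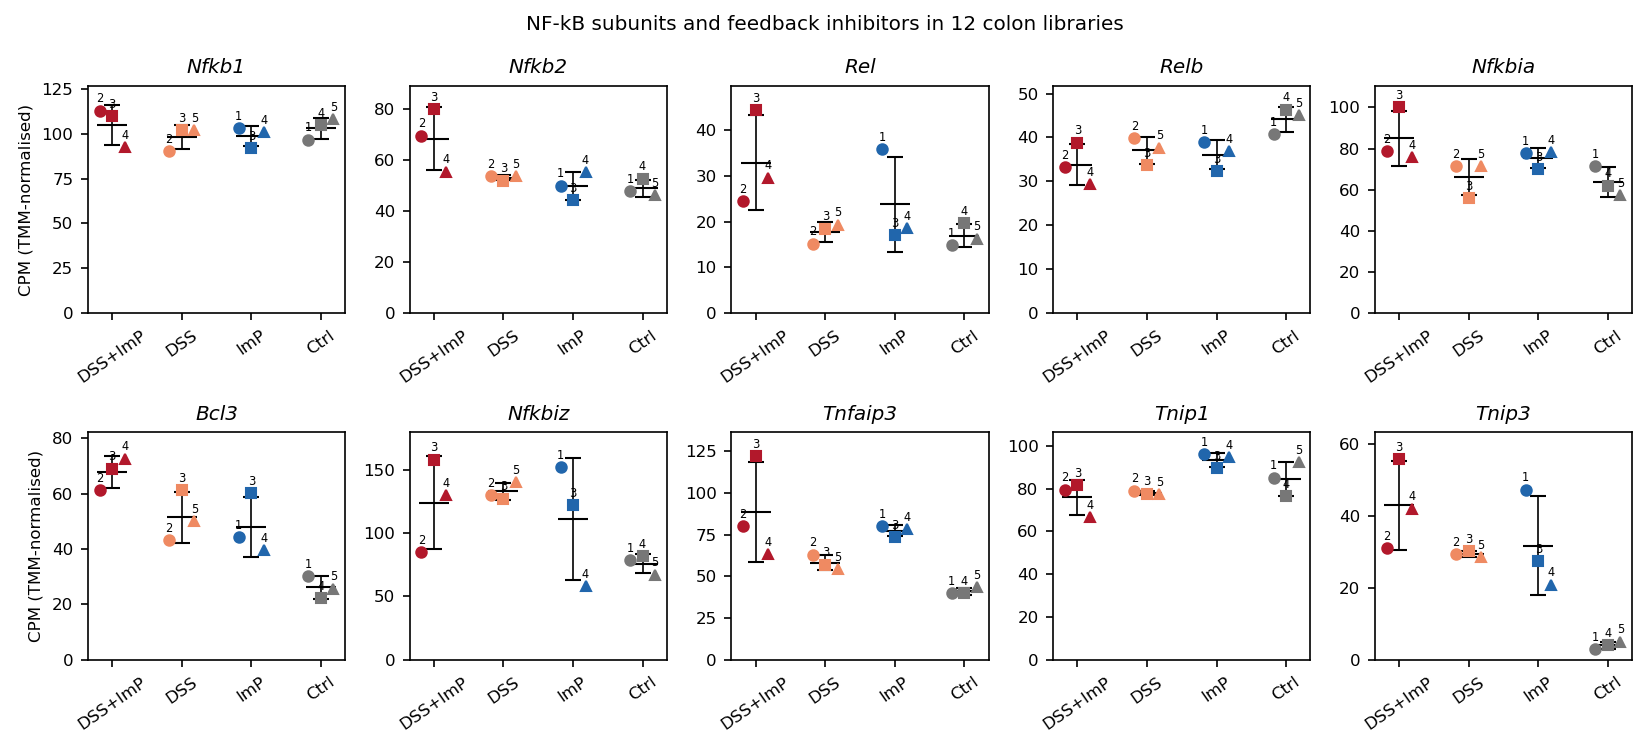
CPM of each gene in the 12 libraries, by group, with points numbered by library, long bars for the mean and short bars for 1 SD on either side (n = 3). Tnip3 is at 2.87 to 5.0 CPM in Ctrl and at no less than 20.8 CPM in any treated library, Bcl3 and Tnfaip3 are also lowest in Ctrl, and Relb is highest there.

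Tnip3 (ENSMUSG00000044162, chromosome 6) showed the largest change. It encodes ABIN-3, a partner of A20 whose inhibition of NF-κB is known from human cells. Its level was 31.0, 55.8 and 42.0 CPM in DSS+ImP 2, 3 and 4, 29.3, 30.1 and 28.4 CPM in DSS 2, 3 and 5, and 47.2, 27.3 and 20.8 CPM in ImP 1, 3 and 4, against 2.87, 3.93 and 5.0 CPM in Ctrl 1, 4 and 5. No treated library overlapped Ctrl, the DSS libraries lay within a narrow band, and the ImP libraries were spread around it. Tnip3 rose in DSS+ImP by a log2 change of 3.45 ± 0.32 (edgeR adjusted p = 4.8e-05), a fold of 10.9. In DSS it rose by 2.89 ± 0.31 (edgeR adjusted p = 0.0017), a fold of 7.44, and in ImP by 3.01 ± 0.32 (edgeR adjusted p = 0.00436), a fold of 8.06. DSS 2, which carries the liver trace, stood within the range of the other DSS libraries. Set against the 3 Ctrl libraries alone, DSS 2 differed in Tnip3 by 2.92 (edgeR adjusted p = 0.00583, with that lone library assumed to vary like Ctrl). With the liver trace as a term in the fit, the changes were 3.45, 2.90 and 3.01 in DSS+ImP, DSS and ImP, with edgeR adjusted p = 0.0138, 0.02 and 0.21.

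Of the 10 genes, Tnip3 had the largest difference between the DSS change with ImP and that without it. Its change in DSS+ImP against ImP was 0.43 ± 0.29, against 2.89 ± 0.31 in DSS against Ctrl, a difference of -2.46 ± 0.42 on the log2 scale. This interaction missed the threshold in edgeR's quasi-likelihood test, with an unadjusted p of 7.34e-05 and an adjusted p of 0.0572, the 28th smallest p of all tested genes. The test called 0 of all tested genes, or 0.0%, while 2631 had an unadjusted p under 0.05 and DESeq2 called 687, or 3.63% of those it tested. DESeq2 called Tnip3 among them (adjusted p = 1.5e-06). With 1 library left out the edgeR adjusted p lay between 0.0264 and 0.138 and passed in 3 of 12 fits, without DSS+ImP 4, ImP 4 or Ctrl 5. It was 0.0463 with a filter of 1 CPM in 6 libraries, 0.139 with the liver trace as a term and 0.206 with the replicate block, and limma on log2(FPKM + 1) gave a difference of -0.91 (adjusted p = 0.167). None of the other 9 members had an interaction with an unadjusted p under 0.05. The smallest p among them were those of Bcl3 (-0.49 ± 0.25, edgeR unadjusted p = 0.0705) and Nfkb2 (0.34 ± 0.18, edgeR unadjusted p = 0.0849). Nfkbiz had a larger difference with a wider SE (-0.64 ± 0.41).

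Tnfaip3 (ENSMUSG00000019850, chromosome 10) encodes A20. It stood at 80.2, 122 and 63.3 CPM in DSS+ImP, at 63.0, 57.0 and 54.3 CPM in DSS and at 80.0, 73.6 and 78.3 CPM in ImP, against 39.8, 39.9 and 43.3 CPM in Ctrl. Every treated library was above every Ctrl library, and the ImP libraries were above the DSS libraries. Tnfaip3 rose in DSS+ImP by 1.11 ± 0.18 (edgeR adjusted p = 0.00114) and in ImP by 0.92 ± 0.18 (edgeR adjusted p = 0.0294). In DSS its change was 0.50 ± 0.18 (edgeR adjusted p = 0.185). That comparison passed with only the groups compared (edgeR adjusted p = 0.021) and without DSS+ImP 3 (edgeR adjusted p = 0.0208), and in no other fit. The call in ImP was lost without any 1 of the ImP or Ctrl libraries (highest edgeR adjusted p = 0.11), while the log2 change stayed between 0.89 and 0.96. With the liver trace as a term the changes were 1.29 in DSS+ImP and 1.10 in ImP, neither past the threshold (edgeR adjusted p = 0.0567 and 0.38). In DSS+ImP against DSS the change was 0.61 ± 0.18 (edgeR adjusted p = 0.0608). It depended on DSS+ImP 3, the highest library: without it the change was 0.31 (edgeR adjusted p = 0.206), and without DSS+ImP 4 it was 0.80 (edgeR adjusted p = 0.00606).

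Tnip1 (ENSMUSG00000020400, chromosome 11) encodes ABIN-1, the constitutive A20 partner that binds ubiquitin chains. It was at 79.6, 81.6 and 66.6 CPM in DSS+ImP, 79.1, 77.6 and 77.4 CPM in DSS and 96.0, 89.6 and 94.8 CPM in ImP, against 85.1, 76.5 and 92.4 CPM in Ctrl. Its highest values in CPM were in ImP, with each of the 3 ImP libraries above each DSS+ImP library. In FPKM, DSS+ImP 2 (22.06) and DSS+ImP 3 (21.88) lay above ImP 3 (21.31). The edgeR fit called Tnip1 in no comparison. Its change was -0.30 ± 0.10 in DSS+ImP against ImP (edgeR adjusted p = 0.0763). DESeq2 called it lower there (adjusted p = 0.0389), beside 8.12% of all genes it tested, and no other setting did. With limma on log2(FPKM + 1) and log2(FPKM + 0.1) the change was -0.16 and -0.17 (adjusted p = 0.326 and 0.328). In DSS+ImP against Ctrl the edgeR change was -0.16 ± 0.10 (95% interval -0.35 to 0.032). The 3 A20-complex genes thus spanned log2 changes between -0.16 and 3.45 in DSS+ImP against Ctrl.

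**Figure D2:**
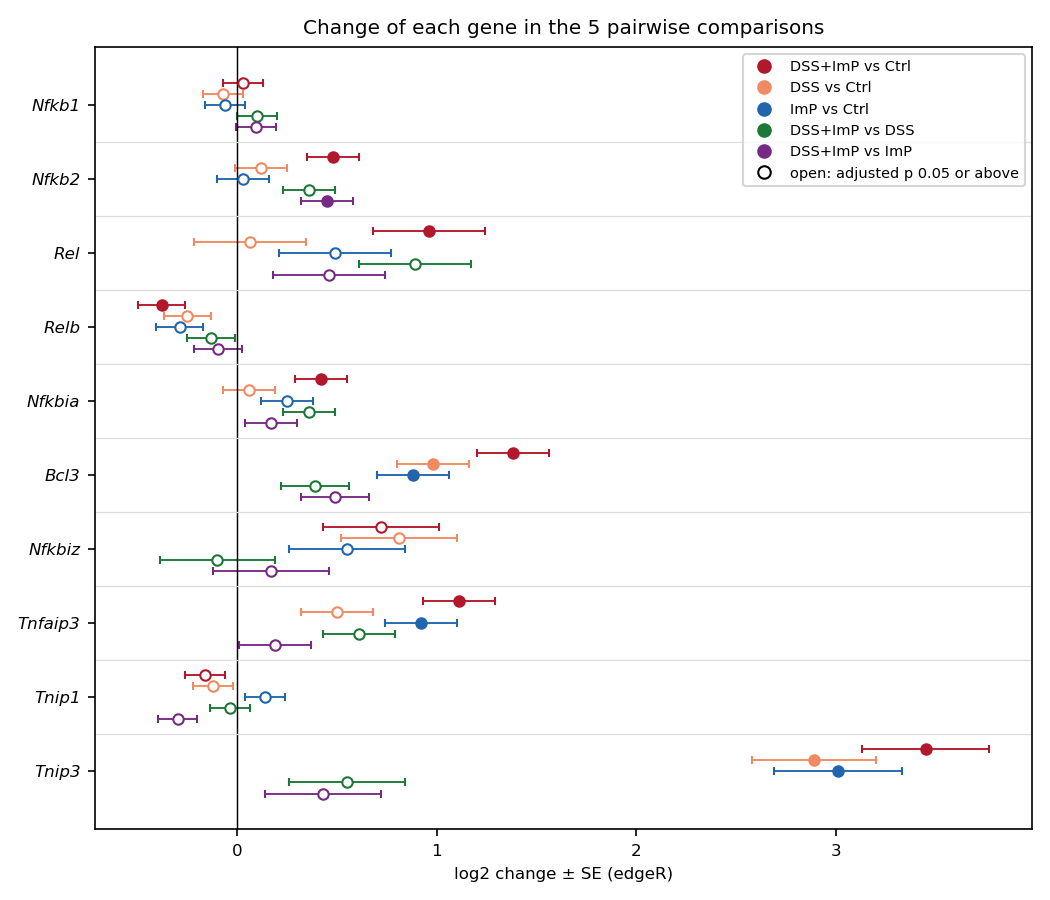
Log2 change of each gene in the 5 pairwise comparisons, with bars of 1 SE from edgeR; filled points passed the false discovery rate of 0.05 over all tested genes and open points did not. Tnip3 stands apart at 2.89 to 3.45 against Ctrl, and Nfkb1, Nfkbiz and Tnip1 have no filled point.

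The nuclear IκB proteins bind NF-κB on DNA and can raise or lower transcription of its targets. Bcl3 (ENSMUSG00000053175, chromosome 7), which partners homodimers of p50 and of p52, was at 61.3, 69.0 and 72.7 CPM in DSS+ImP, 43.1, 61.4 and 50.0 CPM in DSS and 44.2, 60.3 and 39.7 CPM in ImP, against 30.2, 22.2 and 25.7 CPM in Ctrl. Each treated library was above each Ctrl library, and the highest DSS library reached the lowest DSS+ImP library. Bcl3 rose in DSS+ImP by 1.38 ± 0.18 (edgeR adjusted p = 0.000262), in DSS by 0.98 ± 0.18 (edgeR adjusted p = 0.0116) and in ImP by 0.88 ± 0.18 (edgeR adjusted p = 0.0294), folds of 2.60, 1.98 and 1.84. The call in DSS was lost without Ctrl 4 (0.88, edgeR adjusted p = 0.0623). That in ImP was lost without ImP 3 or any 1 Ctrl library (highest edgeR adjusted p = 0.118). With the liver trace as a term, the changes were 1.01, 0.72 and 0.51 in DSS+ImP, DSS and ImP, none of them past the threshold (edgeR adjusted p = 0.0869, 0.231 and 0.709), and DSS 2 alone differed from Ctrl by 0.75 (edgeR adjusted p = 0.164, with that lone library assumed to vary like Ctrl). In DSS+ImP against DSS the change of Bcl3 was 0.39 ± 0.17 (edgeR adjusted p = 0.189), and against ImP it was 0.49 ± 0.17 (edgeR adjusted p = 0.103).

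Nfkbiz (ENSMUSG00000035356, chromosome 16) encodes IκBζ, a nuclear protein induced through interleukin-1 and Toll-like receptors that is needed for a set of secondary response genes. It was at 84.7, 158 and 130 CPM in DSS+ImP, 130, 127 and 140 CPM in DSS and 152, 122 and 58.1 CPM in ImP, against 78.3, 81.6 and 67.1 CPM in Ctrl. All DSS and DSS+ImP libraries lay above Ctrl, while ImP 4 was below every Ctrl library. In the edgeR fit over all 12 libraries it did not pass in any comparison. Its change was 0.72 ± 0.29 in DSS+ImP, 0.81 ± 0.29 in DSS and 0.55 ± 0.29 in ImP against Ctrl, with edgeR adjusted p = 0.0992, 0.182 and 0.411. DESeq2 called it in DSS+ImP and in DSS against Ctrl (adjusted p = 0.0397 and 0.0448). In edgeR it passed there with only the groups compared (adjusted p = 0.0461 and 0.00297) and without ImP 4 (adjusted p = 0.0186 and 0.0405), and in DSS+ImP also without DSS+ImP 2 (adjusted p = 0.045). In DSS+ImP against DSS it was -0.10 ± 0.29, with a 95% interval of -0.66 to 0.47.

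Nfkbia (ENSMUSG00000021025, chromosome 12), the cytoplasmic inhibitor IκBα, moved within a smaller range. It was at 78.7, 100 and 75.9 CPM in DSS+ImP, 71.3, 55.9 and 71.4 CPM in DSS and 77.9, 70.0 and 78.3 CPM in ImP, against 71.5, 61.9 and 57.2 CPM in Ctrl. The 3 DSS+ImP libraries lay above all DSS and Ctrl libraries. Nfkbia rose in DSS+ImP against Ctrl by 0.42 ± 0.13 (edgeR adjusted p = 0.0415), a fold of 1.34. The call was lost without DSS+ImP 3, where the change was 0.30 (edgeR adjusted p = 0.148), and without DSS 5, ImP 1, Ctrl 4 or Ctrl 5. With the liver trace as a term it was 0.58 (edgeR adjusted p = 0.218). Its change was 0.36 ± 0.13 in DSS+ImP against DSS (edgeR adjusted p = 0.124), 0.06 ± 0.13 in DSS and 0.25 ± 0.13 in ImP against Ctrl.

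Among the DNA-binding subunits, Rel and Nfkb2 were higher in DSS+ImP, Relb was lower and Nfkb1 differed little. Rel (ENSMUSG00000020275, chromosome 11) encodes c-Rel, a subunit prominent in lymphoid and myeloid cells. Its level was 24.5, 44.5 and 29.7 CPM in DSS+ImP, 15.2, 18.5 and 19.4 CPM in DSS and 35.9, 17.1 and 18.6 CPM in ImP, against 14.9, 19.7 and 16.3 CPM in Ctrl. Each DSS+ImP library was above each DSS and Ctrl library, and ImP 1 stood apart from ImP 3 and 4. Rel rose in DSS+ImP against Ctrl by 0.96 ± 0.28 (edgeR adjusted p = 0.0292), a fold of 1.94, a call lost without DSS+ImP 3 (0.69, edgeR adjusted p = 0.123), Ctrl 1 or Ctrl 5, and with the liver trace as a term (0.64, edgeR adjusted p = 0.552). Against DSS its change was 0.89 ± 0.28 (edgeR adjusted p = 0.0728), and without ImP 1 that comparison passed with the same change (edgeR adjusted p = 0.0272). In DSS against Ctrl the change was 0.062 ± 0.28.

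Nfkb2 (ENSMUSG00000025225, chromosome 19) encodes p100, the precursor of p52 in the noncanonical pathway. It was at 69.4, 79.8 and 55.4 CPM in DSS+ImP, 53.6, 51.8 and 53.5 CPM in DSS and 49.9, 44.3 and 55.2 CPM in ImP, against 47.8, 52.6 and 46.1 CPM in Ctrl. The DSS+ImP libraries were the highest, though DSS+ImP 4 was only just above ImP 4. Nfkb2 rose in DSS+ImP against Ctrl by 0.48 ± 0.13 (edgeR adjusted p = 0.0175) and against ImP by 0.45 ± 0.13 (edgeR adjusted p = 0.0436). The first call was lost without DSS+ImP 3 (0.37, edgeR adjusted p = 0.0672), Ctrl 1 or Ctrl 5, and the second in 11 of the 12 fits with 1 library left out. With the liver trace as a term the changes were 0.51 and 0.45 (edgeR adjusted p = 0.275 and 0.0577). Against DSS the change was 0.36 ± 0.13 (edgeR adjusted p = 0.101).

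Relb (ENSMUSG00000002983, chromosome 7), the usual partner of p52, was at 33.3, 38.8 and 29.3 CPM in DSS+ImP, 39.8, 33.7 and 37.7 CPM in DSS and 39.0, 32.4 and 36.9 CPM in ImP, against 40.8, 46.3 and 45.1 CPM in Ctrl. In CPM all 9 treated libraries were below the Ctrl libraries. In FPKM, DSS+ImP 3 (9.472), DSS 2 (8.906) and DSS 5 (8.578) lay above Ctrl 1 (8.51). Relb fell in DSS+ImP by 0.38 ± 0.12 on the log2 scale (edgeR adjusted p = 0.0361), a call lost in 6 of the 12 fits with 1 library left out (without DSS+ImP 2 or 4, DSS 5, ImP 4, Ctrl 4 or Ctrl 5). Its change was -0.25 ± 0.12 in DSS and -0.29 ± 0.12 in ImP, with edgeR adjusted p = 0.343 and 0.265. With the liver trace as a term its change in DSS+ImP was -0.23 (edgeR adjusted p = 0.636). Fitted on log2(FPKM + 1) with limma, its change in DSS+ImP was -0.22 (adjusted p = 0.182).

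Nfkb1 (ENSMUSG00000028163, chromosome 3), which encodes p105 and its product p50, was at 113, 110 and 92.6 CPM in DSS+ImP, 90.4, 102 and 102 CPM in DSS and 103, 92.1 and 101 CPM in ImP, against 96.8, 105 and 108 CPM in Ctrl. The groups overlapped throughout. Its log2 changes lay between -0.070 and 0.10 in the 5 pairwise comparisons, and the 95% interval in DSS+ImP against Ctrl was -0.16 to 0.22. With an SE of 0.10, Nfkb1 and Tnip1 were the most tightly measured of the 10.

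Compared per length, in FPKM, the deposited unit that corrects for transcript length as well as library size, Nfkbia was the most abundant member in every group, and Tnip3 and Rel were the least abundant. In DSS+ImP, Nfkbia stood at 49.7 ± 8.67 FPKM, followed by Bcl3 at 25.6 ± 1.18, Nfkbiz at 23.2 ± 6.67 and Tnip1 at 20.2 ± 3.01 FPKM (SD, n = 3). In Ctrl, Nfkbia stood at 33.6 ± 2.40 FPKM, followed by Tnip1 at 20.4 ± 2.21 and Nfkbiz at 12.9 ± 1.22 FPKM, with Bcl3 at 8.94 ± 1.05 FPKM and within 1 SD of Nfkb2 at 9.09 ± 0.797 FPKM. Bcl3 was thus second by mean in DSS+ImP but level with Nfkb2 and Relb (9.69 ± 1.03 FPKM) in Ctrl. Tnip3 was at 3.69 ± 1.06 FPKM in DSS+ImP, near Rel at 4.14 ± 1.33 FPKM, and at 0.306 ± 0.0952 FPKM in Ctrl, where Rel was at 1.94 ± 0.339 FPKM.

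The spread within groups was itself uneven. DSS+ImP 3 was the highest library of its group for 8 of the 10 genes (all but Nfkb1 and Bcl3), and ImP 1 was the highest of its group for 7. Averaged over the 10 genes, each standardised over the 12 libraries, log2 CPM was 0.41, 1.31 and -0.10 SD from the mean in DSS+ImP 2, 3 and 4, -0.17, -0.20 and 0.02 in DSS 2, 3 and 5, and 0.60, -0.17 and 0.01 in ImP 1, 3 and 4, against -0.66, -0.55 and -0.51 in Ctrl 1, 4 and 5. The Ctrl libraries were the lowest and alike, and the ImP libraries differed among themselves mainly through ImP 1. Relb and Tnip1 did not follow the others: the Pearson correlation of each gene with the mean of the other 9, across the 12 libraries, was 0.88 for Tnfaip3, 0.80 for Rel, 0.73 for Nfkbia, 0.69 for Nfkb2 and 0.66 for Tnip3, but -0.10 for Tnip1 and -0.39 for Relb. These correlations describe libraries that fall into treatment groups and carry no test.

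**Figure D3:**
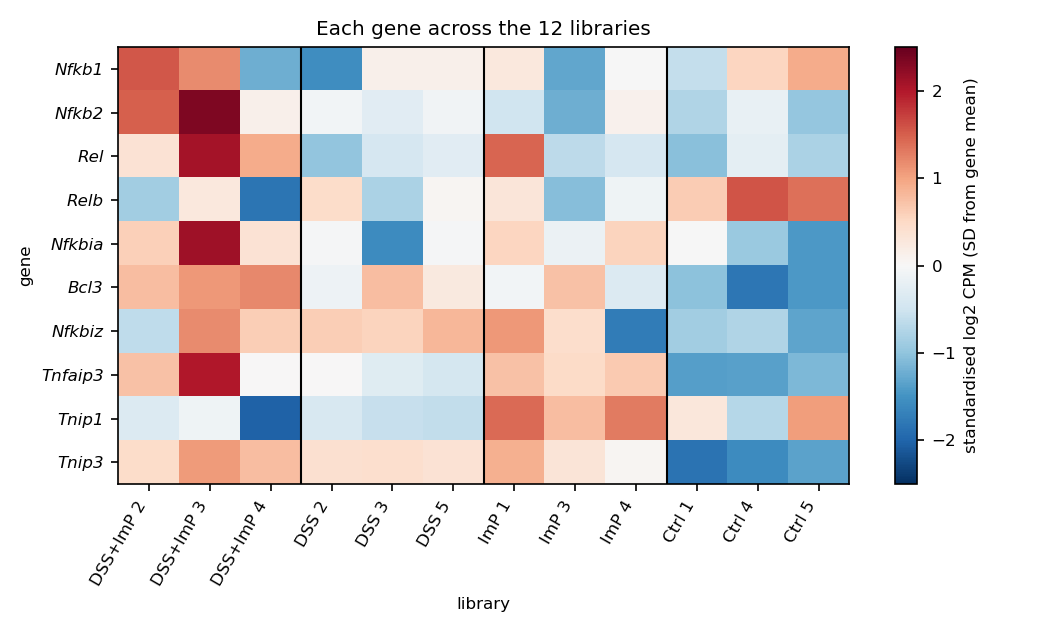
Standardised log2 CPM of each gene (rows) in the 12 libraries (columns, by group), in SD from the gene's mean. DSS+ImP 3 is the most intense column, with 8 of the 10 genes at their highest within DSS+ImP, and Relb runs opposite to Bcl3 and Tnip3, being highest in Ctrl.

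Transcripts of neutrophils and macrophages were highest in DSS+ImP, the group where most of these genes also had their highest mean. The 12 neutrophil markers summed to 609, 1557 and 451 CPM in DSS+ImP 2, 3 and 4, 141, 117 and 61 CPM in DSS 2, 3 and 5, and 266, 80.6 and 71.9 CPM in ImP 1, 3 and 4, against 8.31, 9.91 and 13.3 CPM in Ctrl 1, 4 and 5, where Mmp8 and Ngp were at 0. DSS+ImP 3 and ImP 1, the libraries highest for most of the 10 genes in their groups, were also highest for these markers. Within DSS it was otherwise: DSS 5 had the lowest neutrophil sum but the highest standardised mean of the 10 genes. Of the 12, 11 rose in DSS+ImP, 4 in DSS and 1 in ImP against Ctrl, and 9 rose in DSS+ImP against DSS. Of all tested genes 10.9%, 1.21%, 1.06% and 3.99% rose, in the same order. The 10 monocyte and macrophage markers summed to 397 to 784 CPM in DSS+ImP, 215 to 298 CPM in DSS and 286 to 361 CPM in ImP, against 258 to 305 CPM in Ctrl. Between DSS+ImP and DSS, 7 of them rose and 1 fell, beside 3.99% and 4.04% of all tested genes. In DSS against Ctrl none of them was called, beside 1.21% of all tested genes up and 1.59% down, with a median log2 change of -0.18. Fibroblast markers summed to 1102 to 1755 CPM in DSS+ImP and to no more than 781 CPM in any other library. Endothelial markers summed to 161 to 247 CPM in DSS+ImP and to no more than 135 CPM in any other library. T and NK cell markers went the other way, at 47.5 to 58.4 CPM in DSS+ImP against 92.7 to 106 CPM in Ctrl. The part of these cell types in the changes of the 10 genes was not tested.

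The genes most like the mean profile of the 10 across the 12 libraries, among 12010 genes compared, were Camsap2 (Pearson r = 0.959), Fxyd4 (0.944), Ankrd44 (0.941), Cd14 (0.939) and Pag1 (0.939). Camsap2 encodes a microtubule minus-end protein, Cd14 the co-receptor for bacterial lipopolysaccharide and Pag1 a membrane adaptor that binds the kinase Csk. Cd14 was at 123, 265 and 91.7 CPM in DSS+ImP, 51.2, 58.4 and 58.3 CPM in DSS and 92.0, 56.5 and 45.8 CPM in ImP, against 29.8, 32.8 and 32.7 CPM in Ctrl. It peaked in DSS+ImP 3 and ImP 1, as most of the 10 genes did. Cd14 is also among the monocyte and macrophage markers summed above, so it is not a separate observation from them. Fxyd4, an ion transport regulator, was at 34.2 CPM in DSS+ImP 3 and at no more than 5.87 CPM elsewhere.

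Around the 10 genes, 99 other genes of the NF-κB pathway were grouped by role, and all 99 were tested. The lists were chosen with earlier results of these data known, so their counts are a description, not independent support. In each role the genes named are those with the smallest p in DSS+ImP against DSS. With ImP added to DSS, where none of the 10 was called, 25 of the 99 rose and 4 fell, beside 3.99% and 4.04% of all tested genes, and the median log2 change was 0.21. The 29 calls became 11 without DSS+ImP 3, 11 without DSS 5, 12 without DSS 2 and 18 without DSS+ImP 2. They became 19 with only the groups compared, 12 with the liver trace as a term and 10 with the replicate block. In all but 1 of these fits (without DSS 5, 1 fall) none of the 99 fell. Over all tested genes the 1789 calls became 491, 522, 758, 820, 721, 775 and 351 in the same order. Higher counts among the 99 came with DESeq2 (36), counts divided by 4 (33), limma on log2(FPKM + 1) (30) and without DSS+ImP 4 (30). Over all tested genes those fits called 3125, 2187, 1944 and 2616. Most of the risers were target genes. Of these 24 genes 15 rose and 1 fell, with a median of 1.55. Cxcl2, a neutrophil chemokine, averaged 102 ± 48.3 CPM in DSS+ImP and 4.94 ± 3.34 CPM in DSS, a log2 change of 4.37 ± 0.59 (edgeR adjusted p = 0.00422). Lcn2, an iron-sequestering antimicrobial protein, averaged 156 ± 102 CPM in DSS+ImP and 13.1 ± 2.63 CPM in DSS (3.58 ± 0.44). Ccl2, a monocyte chemokine, rose by 2.15 ± 0.27 and Mmp9, a gelatinase that is also a neutrophil marker here, by 2.69 ± 0.43.

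Of 9 ligands 3 rose and 0 fell, beside 3.99% and 4.04% of all tested genes. Il1b averaged 140 ± 63.2 CPM in DSS+ImP and 13.8 ± 9.18 CPM in DSS, a log2 change of 3.34 ± 0.44 (edgeR adjusted p = 0.00419), Il1a rose by 3.47 ± 0.84 and Tnfsf14, which encodes the ligand LIGHT, by 1.63 ± 0.43. Tnfsf11, the ligand RANKL, had a change of 3.02 ± 0.98 (edgeR adjusted p = 0.0813). Of 13 receptors 2 rose and 0 fell, the interleukin-1 receptor Il1r1 (1.41 ± 0.23) and the tumour necrosis factor receptor Tnfrsf1b (0.76 ± 0.14). Neither Tnfrsf1a (0.41 ± 0.12) nor Cd40 (0.72 ± 0.23) passed.

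Of 16 kinases 2 rose and 0 fell, Map3k8 (1.47 ± 0.22), the kinase TPL2 that is bound by p105, and Map3k14 (0.75 ± 0.21), the kinase NIK that triggers processing of p100. Tab1 (-0.25 ± 0.11) and Tbk1 (-0.19 ± 0.08) did not pass. Of 18 adaptors and ubiquitin ligases 0 rose and 1 fell, Ticam1 (-0.43 ± 0.10), the adaptor TRIF, while Tirap, Traf3 and Card9 had changes of 0.34 ± 0.10, 0.39 ± 0.12 and 1.04 ± 0.36 that did not pass. Of 14 other negative regulators 1 rose, Irak3 (1.15 ± 0.24), which blocks signalling from Toll-like receptors, and 1 fell, Sigirr (-0.45 ± 0.13), an orphan receptor that dampens interleukin-1 signalling. Tax1bp1 (-0.46 ± 0.15), an A20 adaptor, and Cyld (-0.23 ± 0.09), a deubiquitinase, did not pass. As 3.99% of all tested genes rose and 4.04% fell, 1 call in a role of 18 or 14 genes is close to those shares. Among 5 further subunits and IκB proteins, Nfkbid (2.46-fold) and Nfkbie (2.18-fold) rose, Nfkbil1 fell by 0.56 ± 0.14 on the log2 scale and Rela (0.18 ± 0.10), the main activating subunit, did not pass.

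**Figure D4:**
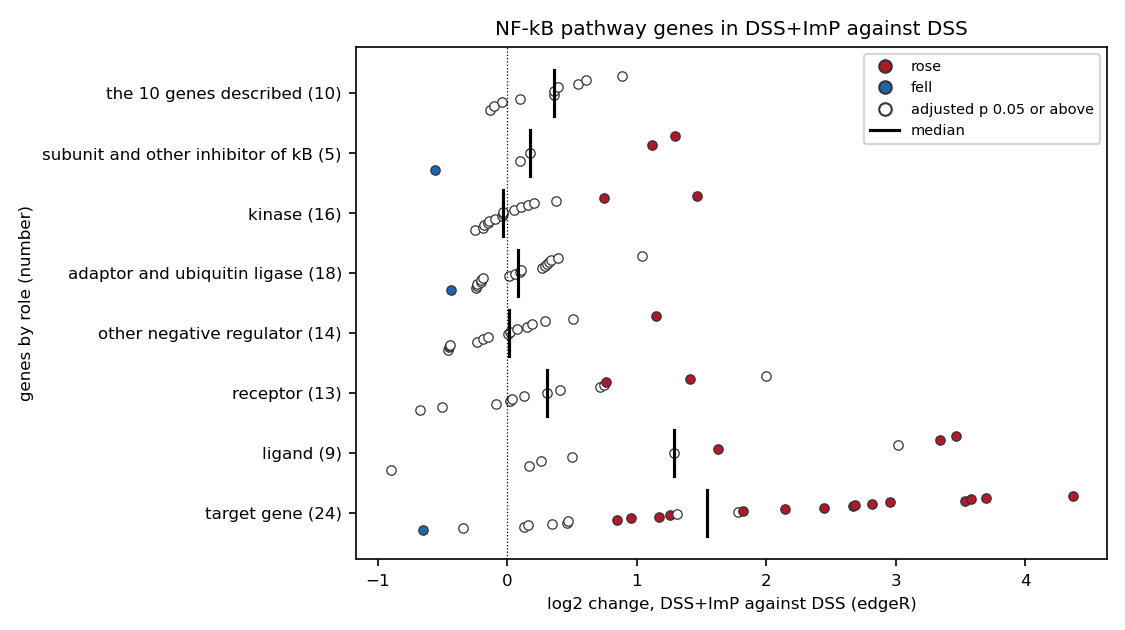
Log2 change in DSS+ImP against DSS of the 10 genes and of 99 other pathway genes by role, each point a gene, with coloured points past a false discovery rate of 0.05 in edgeR and black bars for medians. The medians of ligands (1.29) and target genes (1.55) lie to the right of the 10 genes (0.36), none of which is coloured.

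The other comparisons of the 99 pathway genes share libraries with these. Of the 99, 38 rose and 11 fell in DSS+ImP, 7 rose and 3 fell in DSS, and 3 rose and 1 fell in ImP against Ctrl, with medians of 0.21, 0.013 and 0.088. Of all tested genes, 10.9% rose and 11.8% fell in DSS+ImP against Ctrl. In DSS 1.21% rose and 1.59% fell, and in ImP 1.06% rose and 0.929% fell. The falls among the 99 in DSS+ImP and in ImP were thus near the share of all tested genes. In DSS+ImP against ImP 24 rose and 6 fell, beside 4.41% and 4.92% of all tested genes. Tnfrsf1b rose in DSS by 0.78 ± 0.14 (edgeR adjusted p = 0.0126) and in ImP by 0.75 ± 0.14 (edgeR adjusted p = 0.0244). Il1b rose in DSS against Ctrl by 1.85 ± 0.43 (edgeR adjusted p = 0.0414), and Lcn2, Cxcl2 and Mmp9 rose there by 2.84 ± 0.46, 3.60 ± 0.67 and 2.42 ± 0.45. None of the 99 passed the interaction in edgeR's quasi-likelihood test, beside 0.0% of all 22279 tested genes, so this count is not particular to the pathway. The smallest adjusted p of any gene there was 0.0506. Of the pathway genes named, Ccl2 had the smallest p in the interaction (2.40 ± 0.37, edgeR adjusted p = 0.0522).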

How the data were processed

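Colon RNA of 12 libraries in 4 groups of 3 was read from 1 table of genes. The table as deposited holds estimated counts, whole numbers for each gene, and beside them, per the file headers, FPKM values. Per the labels, RNA was extracted with Trizol, captured with oligo(dT) and made into dUTP-stranded libraries. Strand use in counting was not given in the sources used here, so reads of overlapping antisense genes may be included. The submitters' processing notes name StringTie 1.3.4d, HISAT2 2.0.4, cutadapt 1.9 and build GRCm38, but only 597 of 33695 shared identifiers had the coordinates of GENCODE M21, so no file coordinates are printed. Counts of 4 were in excess (12215 values, against 7060 of 3 and 4182 of 5), so counts are not single reads, and an alternative divides them by 4.

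Counts were rounded, filtered with filterByExpr (22279 genes), normalised by TMM (factors 0.921 to 1.12) and fitted by the quasi-likelihood method of edgeR 4.0.16 (R 4.3.3) over all 12 libraries, 1 coefficient per group, two-sided, with Benjamini-Hochberg adjustment over all tested genes. The common biological coefficient of variation was 0.312. SE was taken as the size of the log2 change divided by √F, and 95% intervals treat it as normal. The fits were tested on simulated counts. CPM used TMM-scaled library sizes. The members, gene lists and tests were chosen with earlier results of these data known. Named were all members, in each role up to 4 pathway genes with the smallest p in DSS+ImP against DSS, and the 5 genes most correlated with the members' mean, among those with at least 1 FPKM on average. Alternatives used DESeq2 1.42.0, limma 3.58.1 on log2 FPKM, other filters and scalings, and each library left out in turn.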

Additional observations from a re-analysis of the deposited data

How the results depend on the processing

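Counts of members called, out of 10, moved with the processing. For DSS+ImP against DSS the count was 0 as reported, 2 with DESeq2, and 1 each with a filter of 1 CPM in 6 libraries, limma on log2(FPKM + 1), limma on log2(FPKM + 0.1) and counts divided by 4. Leaving out 1 library each gave 0 to 2 (2 without DSS+ImP 4). For DSS against Ctrl the count was 2 as reported, 4 with only the groups compared, 1 with only the libraries with a liver trace (albumin at or above 10 CPM, DSS 2 and the Ctrl libraries), 1 with the liver trace as a term, and 1 to 3 with 1 library left out. For ImP against Ctrl it was 3 as reported, 0 with the liver trace as a term and 1 to 3 with 1 library left out (1 without ImP 3 or any 1 Ctrl library). For DSS+ImP against ImP it was 1 as reported, 2 with DESeq2 and with limma at either pseudocount, 0 with no filter, with only the groups compared and with the liver trace as a term, and 0 to 1 with 1 library left out. For DSS+ImP against Ctrl it was 7 as reported, 1 with the liver trace as a term and 3 to 7 with 1 library left out (4 without DSS+ImP 3, 3 without Ctrl 5). For the interaction it was 0 as reported, 1 with DESeq2, 1 with the filter of 1 CPM in 6 libraries and 0 to 1 with 1 library left out. Over all tested genes, calls with the liver trace as a term numbered 775, 52, 1, 1984, 738 and 1 in the 6 comparisons, in the order above. The liver term was chosen after seeing the data, and the cause of these shifts was not tested. RLE size factors left each of the 6 counts as reported. The limma fits used FPKM without TMM, and their calls leaned upward. In DSS+ImP against ImP, limma on log2(FPKM + 1) called 1706 genes up and 702 down over all genes it tested. With log2(FPKM + 0.1) it called 1612 up and 716 down, against 982 up and 1097 down in edgeR.

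The libraries share only a replicate number: deviations of same-numbered libraries correlated between -0.11 and 0.0827 over 9 pairs. With the replicate block the counts of members called were 0 in DSS+ImP against DSS, 0 in DSS against Ctrl and 0 in ImP against Ctrl. They were 0 in DSS+ImP against ImP, 3 in DSS+ImP against Ctrl (Bcl3, Tnfaip3 and Tnip3) and 0 in the interaction. Over all tested genes that fit called 351, 10, 0, 688, 1862 and 2 in the same order, so few genes of any kind passed in several comparisons.

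Changes near 0 that were not called took the other sign in some settings. Tnip1 in DSS+ImP against DSS was -0.039 as reported, 0.06 and 0.062 with limma on log2(FPKM + 1) and log2(FPKM + 0.1), 0.023 with the replicate block, and -0.091 to 0.047 with 1 library left out. Relb in DSS+ImP against ImP was 0.032 and 0.035 in the same limma fits. Rel in DSS against Ctrl was -0.14 among libraries with a liver trace, -0.16 with the liver trace as a term and -0.021 to 0.18 with 1 library left out. Nfkb1 in DSS+ImP against Ctrl was -0.15 with the liver term and -0.015 to 0.11 with 1 library left out. Leaving out 1 library also gave -0.30 to 0.12 for Nfkbiz in DSS+ImP against DSS, -0.15 to 0.47 for Nfkbiz and -0.10 to 0.39 for Tnfaip3 in DSS+ImP against ImP, -0.01 to 0.17 for Nfkbia in DSS against Ctrl, -0.037 to 0.11 for Nfkb2 in ImP against Ctrl, and -0.037 to 0.19 for Nfkbia in the interaction. Over all tested genes, the calls in DSS+ImP against DSS numbered 1789 as reported and 351 to 3125 over the alternatives, 623 and 10 to 1487 in DSS against Ctrl, 443 and 0 to 1277 in ImP against Ctrl, 2079 and 688 to 3104 in DSS+ImP against ImP, 5061 and 738 to 5982 in DSS+ImP against Ctrl, and 0 and 0 to 687 in the interaction. In each comparison the highest count was that of DESeq2.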
